A study of Mus musculus with 2 samples.

Results

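The genes described here are the oncofetal genes Hmga1, Hmga2, Lin28a, Lin28b, Igf2bp1, Igf2bp2, Igf2bp3 and Igf2, most of which are active in the embryo and silent in adult muscle. They were chosen by symbol, with their levels in these tumors already known, so the levels are descriptions and support nothing by themselves. Of these 8 genes, 7 were among the 19059 features counted, and Hmga1 had no feature. The data are single-nucleus RNA counts from 8 tumors of the dFLEx CDS mouse, which carries a CIC::DUX4 fusion gene driven by the CAG promoter and locked until both Cre and FLP recombinase have acted. Plasmids for the recombinases, pCAG-Cre and pCAG-FLPE, were electroporated into hind limb muscle, so every tumor of both groups carries the recombined fusion. The untreated group held 4 tumors (genotype given as dFLEx CDS +/-), and the other 4 came from mice given Minnelide, a water-soluble prodrug of the transcription inhibitor triptolide, at 0.42 mg/kg for 21 days. No genotype is labelled for the Minnelide group, and the labels give no age for either.

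CIC::DUX4 joins the DNA-binding repressor CIC to the activating end of DUX4 and turns on genes that CIC normally keeps low. HMGA2 is a chromatin protein that bends AT-rich DNA and marks embryonic and many malignant mesenchymal cells. LIN28A and LIN28B bind the precursors of the let-7 microRNAs and block their maturation, and let-7 in turn represses HMGA2, LIN28 and IGF2BP transcripts through their 3′ untranslated regions (UTRs). The IGF2BP proteins bind and stabilize mRNAs, Igf2 mRNA among them. Igf2 is an imprinted growth factor of fetal muscle.

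The sequences that tie these genes together are the let-7 seed and its matches, and they are shown first. In RefSeq (GRCm38.p6), 11 of 1679 mature mouse microRNA names share the seed at bases 2 to 8, which stands in capitals. Of these, let-7a-5p is at chr13:48538239-48538260 (minus strand), let-7g-5p at chr9:106178846-106178867 (plus strand) and miR-98-5p at chrX:151913229-151913250 (plus strand).
let-7a-5p: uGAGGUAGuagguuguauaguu
let-7g-5p: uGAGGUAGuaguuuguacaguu
miR-98-5p: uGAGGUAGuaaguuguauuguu

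The complement of that seed, CTACCTC, was searched on the sense strand of the longest annotated 3′ UTR of each gene (GENCODE M39, GRCm39). Hmga2 (chr10:120197173-120313095, minus strand) held 4 matches in 3021 bases, and Lin28b (chr10:45252646-45362557, minus strand) held 4 in 4515 bases. Igf2bp1 (chr11:95847989-95896911, minus strand) also held 4, and Lin28a (chr4:133730641-133746173, minus strand) held 2. Igf2bp3 (chr6:49062144-49192447, minus strand), Igf2bp2 (chr16:21877759-21982499, minus strand) and Hmga1 (chr17:27775449-27782648, plus strand) held 1 each. Igf2 (chr7:142204503-142220694, minus strand) held 0. Among 18705 counted genes with a 3′ UTR, 12.6% held at least 1 match and 0.0802% held 4 or more, Hmga2, Lin28b and Igf2bp1 among them. These shares are not scaled for length. The median 3′ UTR had 1586 bases, and that of Igf2bp1 had 6337. Per kilobase Hmga2 held 1.32 matches, Lin28b 0.886, Hmga1 0.84 and Igf2bp1 0.631. Matches to let-7 are part of what these genes are known for, so the counts are a description.

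The windows below are the 4 of Hmga2, at chr10:120200118-120200147, chr10:120198881-120198910, chr10:120198443-120198472 and chr10:120197585-120197614, then the single window of Igf2bp3 at chr6:49063710-49063739, that of Igf2bp2 at chr16:21878212-21878241 and the first of Lin28b at chr10:45257107-45257136 (all GRCm39, minus strand, written 5′ to 3′ as in the mRNA). They are shown because these transcripts were either the most abundant of the set or, for Lin28b, the let-7 inhibitor itself. Capitals mark the match, and a run of 8 capitals also has the A that faces the first base of let-7.
Hmga2 window 1: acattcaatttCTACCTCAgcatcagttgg
Hmga2 window 2: actcctcaataCTACCTCtgaatgctacag
Hmga2 window 3: tttgcaaggaaCTACCTCcacacttccaaa
Hmga2 window 4: aaaacacactaCTACCTCttaagtcccagt
Igf2bp3 window: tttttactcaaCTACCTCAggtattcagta
Igf2bp2 window: acaaataaaagCTACCTCAggtgtttttta
Lin28b window 1: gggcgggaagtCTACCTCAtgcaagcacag

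**Figure D1:**
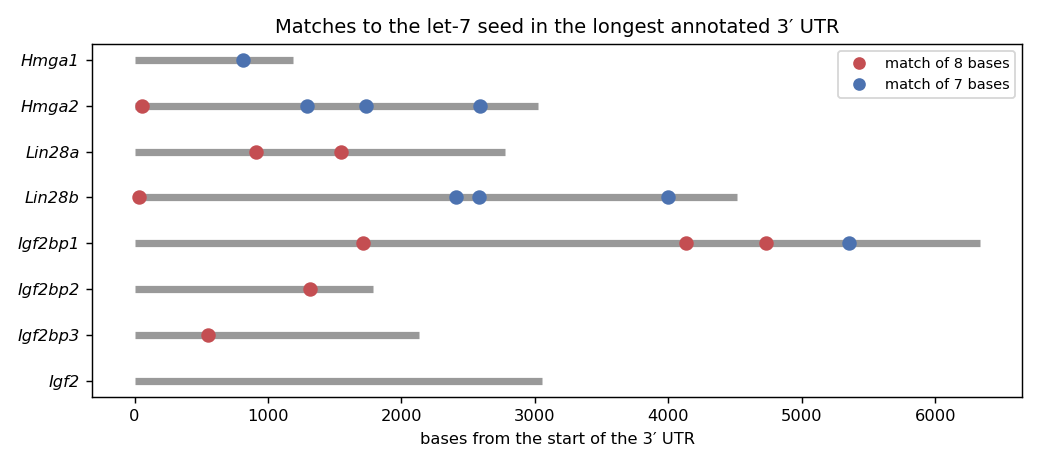
Grey bars are the longest annotated 3′ UTR of each gene, with bases from its start on the x axis, and dots are matches to the let-7 seed of 8 bases (red) or 7 bases (blue). Hmga2, Lin28b and Igf2bp1 each hold 4 matches and Igf2 holds 0.

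Mature let-7 is too short for this assay and was not measured. The letters TGAATGAA, TCAATGAA, TGAATGGA and TCAATGGA, the octamer that CIC binds, were searched on both strands of the RefSeq promoter windows (GRCm38.p6, 250 bases before to 50 after each start). No window of Hmga2, Lin28a, Lin28b, Igf2bp2, Igf2bp3 or Igf2 held one, against 3.15% of 18366 windows in all. Nor did those of the CIC targets Etv1, Etv5, Spred1 and Spred2, while Shc4 held 2, so no match in these windows says nothing about binding by CIC. Igf2bp1 and Hmga1 had no window in that table. The coding sequences of Igf2bp1, Igf2bp2 and Igf2bp3 are 60.3% to 67.9% identical in base sequence, and those of Lin28a and Lin28b 49.5%.

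The deposited matrices held 18487409 to 73211599 UMIs (unique molecular identifiers, each standing for 1 captured transcript) per tumor, and 4432 to 10221 nuclei per tumor were retained. Nuclei were clustered and classes named from marker genes, and the ending "-like" marks that the names are rebuilt here. The markers of tumor cells were Etv1, Etv4, Etv5 and 8 others, which summed to 13805 to 23558 CPM (each gene's UMIs scaled to a class total of 1e6) in tumor-like nuclei and at most 18094 CPM in any other named class of any tumor, below the tumor-like nuclei of the same tumor in each. A cluster of 1033 nuclei in Minnelide tumor 3 that stayed unnamed held them at 29621 CPM, above the tumor-like nuclei of that tumor (23558 CPM). Untreated tumor 1 stood apart. In its tumor-like nuclei the 10 endothelial markers summed to 3641 CPM against 384 to 861 CPM in the other 7 tumors, with 9 of 10 highest there, and all 10 macrophage markers were highest there too (1058 CPM against 216 to 441 CPM). Summed markers of T and NK cells (149.7 against 2.48 to 16.9 CPM) and B cells (141 against 1.86 to 5.46 CPM) were highest there as well. So were those of dendritic cells, adipocytes and myocytes, while those of fibroblasts and pericytes were the lowest. No endothelial or macrophage marker was at 0 in any tumor. The part of all these markers in the results below was not tested. Each untreated tumor shared barcodes with the Minnelide tumor of the same number (132, 49, 111 and 63 barcodes for tumors 1 to 4), and all other pairs shared 0. The first barcodes listed for same-numbered tumors had the same bases at positions 8 and 9, called the barcode position below. Only the first barcode of each tumor was compared for this. Without the nuclei of shared barcodes the medians below moved by less than the spread between tumors. The labels do not tie tumors to runs, so run and treatment cannot be told apart.

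Hmga2 was abundant for its length in the tumor-like nuclei of every tumor. Its level was 2524, 3717, 4492 and 2915 CPM in untreated tumors 1 to 4, and 4274, 3925, 3697 and 3505 CPM in Minnelide tumors 1 to 4. The groups overlapped, and untreated tumor 1 was the lowest. Per kilobase of its 115.9 kb gene span it ranked between 38 and 149 of 19043 features. Scaling by span rests on the stated counting of intronic reads. The features lack Actb, Gapdh and Malat1, the gene set counted is not settled, and if the counts came from probes such ranks would not compare genes by length. Among tumor-like nuclei with at least 1000 UMIs, each thinned to 1000, 86.6% to 96.1% held an Hmga2 UMI. This left out 5683 of 8208 nuclei in untreated tumor 4 and 0 to 433 in each of the other tumors. Unthinned, over all tumor-like nuclei, the share was 82.4% in untreated tumor 4 and up to 99.6% elsewhere.

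Igf2bp3, which encodes an RNA-binding protein of the embryo, was high in 7 tumors and low in 1. Its level was 133, 2170, 2236 and 2039 CPM in untreated tumors 1 to 4, and 2390, 2088, 2541 and 2446 CPM in Minnelide tumors 1 to 4. Untreated tumor 1 lay far below the other 7, which spanned 2039 to 2541 CPM. Per kilobase of its 130.3 kb span, Igf2bp3 ranked between 112 and 152 of 19043 features in those 7 tumors and 6712 in untreated tumor 1. At 1000 UMIs, 8.90% of the tumor-like nuclei of untreated tumor 1 held an Igf2bp3 UMI (exact 95% interval 7.95% to 9.94%, counting error only, and 34.4% unthinned). The range over the remaining 7 tumors was 82.4% to 89.2%.

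Igf2bp2, the family member that adult muscle also uses, ranked between 1247 and 5847 of 19043 features per kilobase of its 104.7 kb span. Its level was 131, 324, 346 and 382 CPM in untreated tumors 1 to 4, and 337, 359, 299 and 334 CPM in Minnelide tumors 1 to 4. Untreated tumor 1 was again the lowest, and the other untreated tumors overlapped with the Minnelide tumors. An Igf2bp2 UMI was found at 1000 UMIs in 12.3% of tumor-like nuclei of untreated tumor 1, and elsewhere in 25.5% to 32.6%.

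The remaining members were at or near 0 in tumor-like nuclei. Igf2bp1, the remaining paralog, gave 22 UMIs in the tumor-like nuclei of all 8 tumors together, and at most 0.557 CPM in a tumor. Lin28a gave 3 UMIs in all, each in a different untreated tumor, and 0 in the Minnelide tumors. Lin28b gave 5, 40, 12 and 2 UMIs in untreated tumors 1 to 4, and 10, 0, 8 and 3 UMIs in Minnelide tumors 1 to 4. Its highest level was 2.77 CPM in untreated tumor 2, and a count of 0 in Minnelide tumor 2 allows up to 0.705 CPM at a floor of 3 counts. At most 0.258% of tumor-like nuclei of a tumor held a Lin28b UMI at 1000 UMIs.

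**Figure D2:**
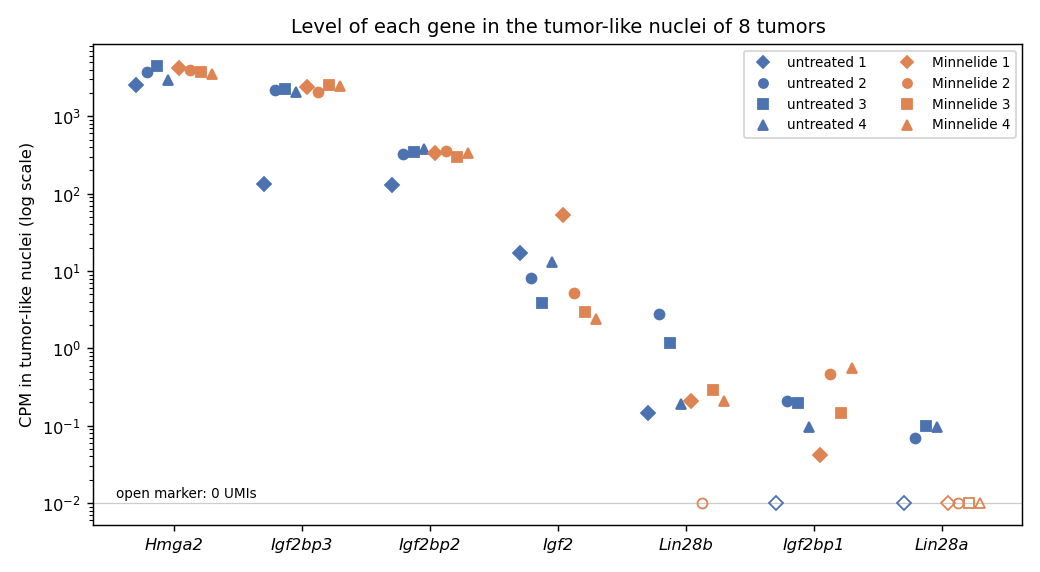
Each marker is 1 tumor, with CPM in tumor-like nuclei on a log axis and genes on the x axis; blue is untreated, orange is Minnelide, and open markers on the grey line have 0 UMIs. Igf2bp3 in untreated tumor 1 (133 CPM) and Igf2 in Minnelide tumor 1 (52.2 CPM) lie apart from their groups.

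Igf2, the ligand, had few UMIs in tumor-like nuclei and differed widely between tumors. Its level was 16.9, 8.23, 3.84 and 13.2 CPM in untreated tumors 1 to 4, and 52.2, 5.17, 2.95 and 2.37 CPM in Minnelide tumors 1 to 4. Minnelide tumor 1 was the highest of all, and the other 3 Minnelide tumors overlapped with the untreated ones. Per kilobase of its 16.2 kb span Igf2 ranked between 1612 and 10806 of 19043 features. Markers of myocytes, which express Igf2 in the fetus, summed to 405 to 6463 CPM in tumor-like nuclei and were highest in untreated tumor 1; their part in the Igf2 values was not tested.

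Which cells hold the transcripts was compared across 7 marker-named classes, where a class had at least 50 nuclei in a tumor. Hmga2 was highest in tumor-like nuclei in 8 of 8 tumors, and so were Igf2bp3 and Igf2bp2. These are clusters of the same nuclei, so no test was made. The level of Hmga2 in fibroblast-like nuclei was 0.122 to 0.490 of that in tumor-like nuclei of the same tumor, in macrophage-like nuclei 0.120 to 0.664, and in myocyte-like nuclei 0.142 to 0.505. For Igf2bp3 the same fractions were 0.221 to 0.513, 0.358 to 0.640 and 0.179 to 0.539. The share of nuclei with an Hmga2 UMI was likewise well above 0 in the other named classes. At 1000 UMIs, Hmga2 was found in 15.3% of macrophage-like nuclei of untreated tumor 1 (median 3107 UMIs before thinning, against 4997 in its tumor-like nuclei) and in 78.0% of those of Minnelide tumor 1 (median 3491 UMIs, against 4009). Unthinned, the values were 27.8% and 93.9%.

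**Figure D3:**
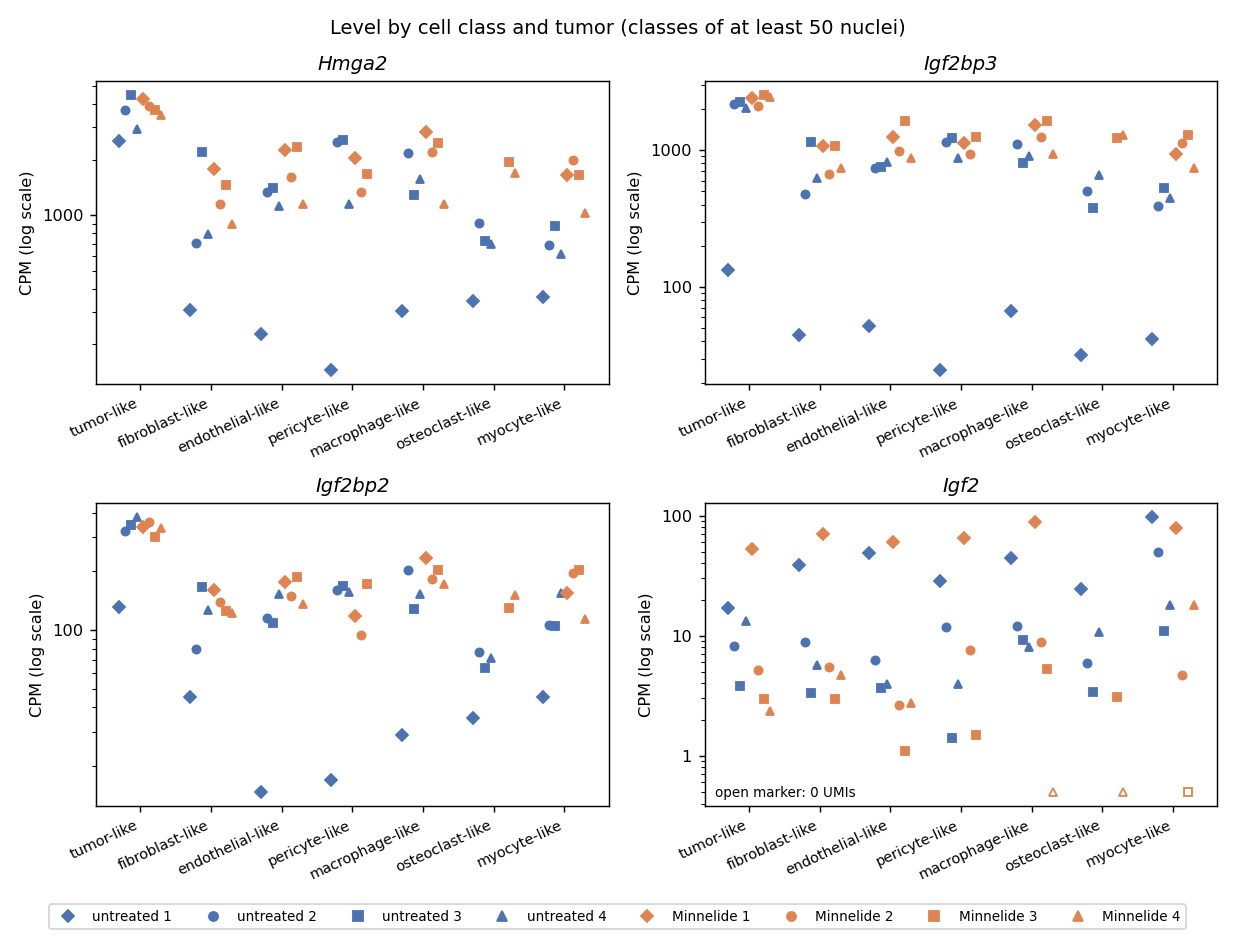
Each marker is 1 tumor, with CPM on a log axis and cell class on the x axis, for Hmga2, Igf2bp3, Igf2bp2 and Igf2; blue is untreated, orange is Minnelide, and open markers have 0 UMIs. Hmga2, Igf2bp3 and Igf2bp2 peak in tumor-like nuclei in all 8 tumors, and Igf2 in none.

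The ratio of Igf2bp3 to Hmga2 UMIs was taken in each class. In Minnelide tumor 1 it was 0.559 in tumor-like nuclei and 0.545 to 0.599 in the other 5 classes. In untreated tumor 3 it was 0.498 and 0.481 to 0.621, and in Minnelide tumor 3 it was 0.687 and 0.631 to 0.785. In untreated tumor 2 it was 0.584 and 0.460 to 0.680, and in untreated tumor 4 it was 0.699 and 0.585 to 0.948. The tumor-like ratio lay below that of every other class in Minnelide tumor 2 (0.532 against 0.564 to 0.705) and in Minnelide tumor 4 (0.698 against 0.724 to 0.832). For some classes the exact 95% interval overlapped the tumor-like one. Among these were macrophage-like nuclei of Minnelide tumor 2 (0.514 to 0.620) and myocyte-like nuclei of Minnelide tumor 4 (0.569 to 0.918). Over the 7 tumors other than untreated tumor 1, the tumor-like ratio lay between 0.498 and 0.699 and that of any other class between 0.460 and 0.948. Whether the UMIs outside tumor-like nuclei are free RNA was not tested, and they are not read here as expression by those cells.

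In fibroblast-like nuclei the ratio of Igf2bp3 to Hmga2 was above the tumor-like ratio in 8 of 8 tumors, with its exact 95% interval wholly above in 8 of 8, at a median of 1.11 times. In untreated tumor 1 the ratio was 0.0526 in tumor-like nuclei and 0.0928 to 0.229 in the other 6 classes. The lowest of these, in osteoclast-like nuclei, had an exact 95% interval of 0.0412 to 0.184, which holds the tumor-like value. The intervals of the remaining classes lay above the tumor-like one. Endothelial-like nuclei of that tumor had 67 Igf2bp3 and 292 Hmga2 UMIs.

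Igf2bp2 had a higher ratio to Hmga2 in both myocyte-like and fibroblast-like nuclei. Its ratio to Hmga2 in myocyte-like nuclei was above the tumor-like ratio in 8 of 8 tumors, at 1.08 to 2.41 times with a median of 1.55, and its interval was wholly above in 6 of 8. In untreated tumor 4 it was 0.252 in myocyte-like and 0.131 in tumor-like nuclei. In fibroblast-like nuclei it was above in 7 of 8 tumors, at a median of 1.26 and up to 2.85 times, again with the interval wholly above in 6 of 8. In endothelial-like nuclei the median was 1.02 times, with the interval wholly above in 1 of 8 tumors. The intervals cover counting error only, and nuclei of 1 tumor are not replicates.

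**Figure D4:**
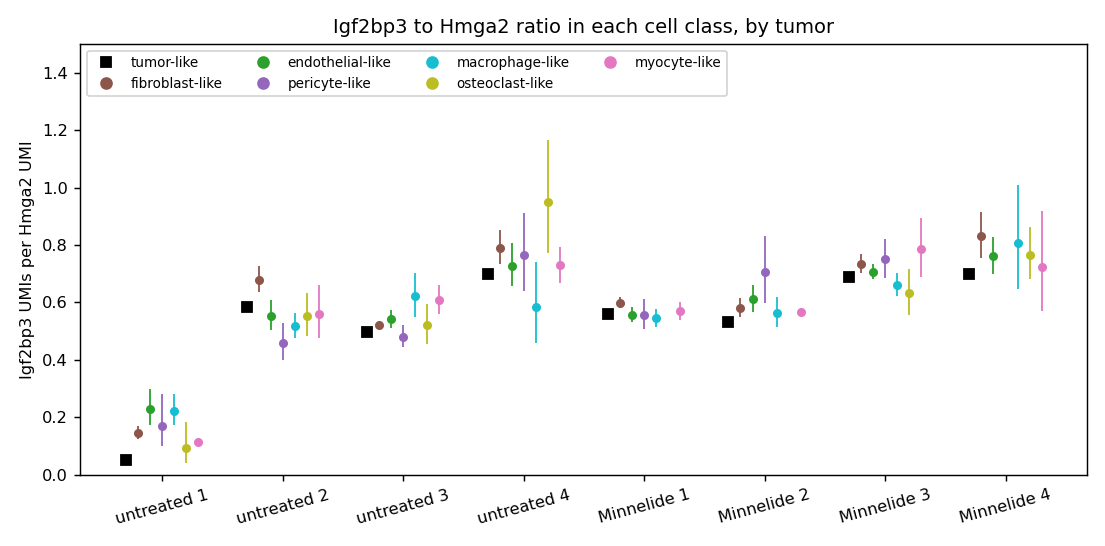
The y axis is Igf2bp3 UMIs per Hmga2 UMI and the x axis the tumor; each marker is a cell class, black squares are tumor-like nuclei, and bars are exact 95% intervals for counting error. The tumor-like value of untreated tumor 1 is 0.0526 while the remaining 7 span 0.498 to 0.699. In untreated tumor 1 and Minnelide tumors 2 and 4 the tumor-like value lies below every other class, with overlapping bars for some classes.

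Igf2 followed another pattern. It was highest in tumor-like nuclei in 0 of 8 tumors and was higher in myocyte-like than in tumor-like nuclei in 6 of 8. Macrophage-like nuclei were also above tumor-like nuclei in 6 of 8, at a median of 1.70 times, and were the highest class in Minnelide tumors 1 to 3. Their levels were 87.9, 8.83, 5.29 and 0 CPM in Minnelide tumors 1 to 4, on 125 Igf2 UMIs in all. The values of Minnelide tumors 2 and 3 thus rest on few UMIs. In untreated tumor 2 Igf2 reached 49.6 CPM in myocyte-like and 8.23 CPM in tumor-like nuclei, and in untreated tumor 1 it reached 97.8 and 16.9 CPM. In Minnelide tumor 3 myocyte-like nuclei had 0 Igf2 UMIs, in 66 nuclei. In Minnelide tumor 1 no class stood out, with 52.2 CPM in tumor-like nuclei and 60.4 to 87.9 CPM in the other classes of at least 50 nuclei. Fewer cells of a type and less RNA per cell cannot be told apart in sums over all nuclei, where Igf2 was at 55.3 CPM in Minnelide tumor 1 and 2.66 to 4.85 CPM in the other 3.

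Within tumors, Igf2bp3 was followed over clusters of tumor-like nuclei with at least 50 nuclei. In untreated tumor 1 its main clusters, of 1757 and 1416 nuclei, had 119 and 70.9 CPM of Igf2bp3, with endothelial markers at 3541 and 4557 CPM. Another cluster, of 103 nuclei had 1163 CPM of Igf2bp3 with endothelial markers at 1207 CPM. In untreated tumor 2, a cluster of 119 nuclei with endothelial markers at 2556 CPM had 981 CPM of Igf2bp3, while its largest cluster, of 2315 nuclei, had 437 and 2392 CPM. The lowest Igf2bp3 in untreated tumor 2, 528 CPM, was in a cluster of 84 nuclei with endothelial markers at 1006.5 CPM, so a low level did not always come with the highest endothelial sum. In the same clusters Hmga2 was at 2486, 2635 and 3372 CPM in untreated tumor 1, and at 3720, 3629 and 4676.5 CPM in untreated tumor 2. Untreated tumor 4 also held unlike clusters. Its largest, of 6111 nuclei at a median of 754 UMIs, had 2159 CPM of Hmga2, 1726 of Igf2bp3 and 18.6 of Igf2. The next, of 1935 nuclei at a median of 1959 UMIs, had 3609, 2332 and 8.59 CPM. The unnamed cluster of Minnelide tumor 3 held Hmga2 at 1841 CPM and Igf2bp3 at 1669 CPM. Clusters share libraries and can differ in depth, so these values are a description.

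**Figure D5:**
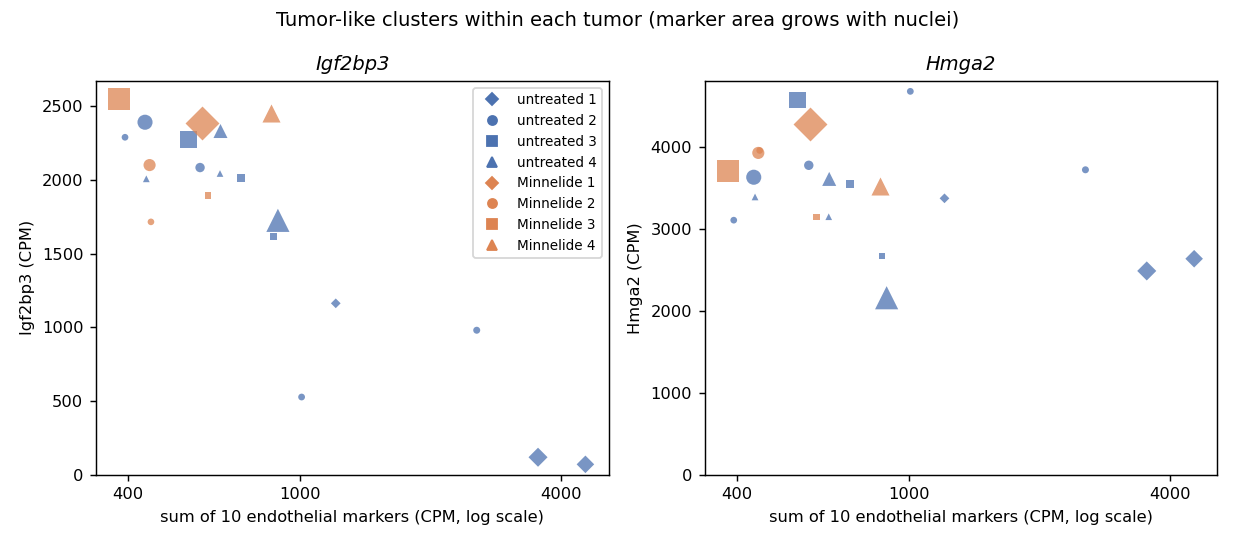
Each marker is a cluster of tumor-like nuclei within 1 tumor (area grows with its nuclei), with the sum of 10 endothelial markers in CPM on a log x axis and the CPM of Igf2bp3 (left) or Hmga2 (right) on the y axis. The main clusters of untreated tumor 1, at 119 and 70.9 CPM of Igf2bp3, lie at the right with the highest endothelial sums.

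Most tumor-like nuclei held both Hmga2 and Igf2bp3 in all tumors but untreated tumor 1. At 1000 UMIs, 75.6% to 84.2% of tumor-like nuclei held both in 7 tumors, and 8.01% in untreated tumor 1, where 78.6% held Hmga2 alone. Levels were also set against the cell cycle. The CPM in tumor-like nuclei with at least 2 G2/M UMIs at 1000 UMIs, divided by that in nuclei with none of the S and G2/M lists, had a median over tumors of 1.02 for Hmga2 (0.935 to 1.18), 1.01 for Igf2bp3 (0.966 to 1.35) and 0.965 for Igf2bp2 (0.832 to 1.14). The first set was broad, with 5244 of 6665 tumor-like nuclei in Minnelide tumor 1. The second held 635 nuclei in untreated tumor 1 and only 53 to 144 in each other tumor. So the cutoff does not single out G2/M nuclei, and the ratios cannot say whether the genes follow the cell cycle.

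The genes most like Hmga2 across 53 sums of a tumor and a class, by Pearson r of log2(CPM + 1), were Etv5 (0.98), Shc3 (0.97), Shc4 (0.97), Pde10a (0.96) and Alk (0.95). Etv5, Shc3 and Shc4 are among the tumor markers that named the classes. For Igf2bp3 they were Gabrb1 (0.97), Asic2 (0.97), Pde10a (0.96), Esrrg (0.96) and Robo2 (0.96). Those for Igf2 were Tspan3 (0.77), Tnnt1 (0.76), Sec62 (0.71), Myh7 (0.71) and Cilp (0.69), of which Tnnt1 and Myh7 encode proteins of slow muscle fibers. For Lin28b the highest was Col11a2 (0.50), followed by Ccnk, Lrp4, Vps26c and Smpd3, and at 105 Lin28b UMIs in all this is no finding. Hmga2 and Igf2bp3 had an r of 0.89 with each other, and Igf2 had one of -0.31 with Hmga2. The sums share tumors, free RNA and depth, and no p is given.

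Whether Minnelide moved the genes was tested over the 8 tumors with edgeR's quasi-likelihood test on UMI sums of tumor-like nuclei, adjusted over all 13041 genes tested (Benjamini-Hochberg). Of the 7 measured members 4 passed the filter on low counts, and 0 of the 4 were called. The background was 0 genes called, or 0% of those tested, and 1398 had an unadjusted p below 0.05. By DESeq2, an alternative tool, the count was 149 genes, 1.14% of those tested, with no member among them. These p-values measure the spread between tumors.

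Hmga2 averaged 3412 ± 875 CPM (SD, n = 4) in untreated and 3851 ± 331 CPM in Minnelide tumors. Its log2 difference, Minnelide minus untreated, was 0.29 with a 95% interval of -0.35 to 0.93, and the adjusted p from edgeR was 0.713. It was 0.14 without untreated tumor 1 and 0.50 without untreated tumor 3 (edgeR adjusted p 0.835 and 0.474). Igf2bp3 averaged 1645 ± 1011 CPM in untreated and 2366 ± 196 CPM in Minnelide tumors, with a log2 difference of 0.61 (-1.01 to 2.23, edgeR adjusted p 0.757). Without untreated tumor 1 the log2 difference of Igf2bp3 was 0.23 (edgeR adjusted p 0.598). Igf2bp2 averaged 296 ± 112 and 332 ± 24.7 CPM, with a log2 difference of 0.27 (-0.50 to 1.04, edgeR adjusted p 0.772). Without untreated tumor 1 it was 0.01 (edgeR adjusted p 0.977). Igf2 averaged 10.6 ± 5.73 and 15.7 ± 24.4 CPM, with a log2 difference of 0.74 (-1.52 to 3.001, edgeR adjusted p 0.786), which turned to -1.44 without Minnelide tumor 1 (edgeR adjusted p 0.733) and to -0.33 with the barcode position as a block (edgeR adjusted p 0.901). With all tumors, the 95% interval of each member given here held 0. Without Minnelide tumor 1, the Igf2 difference of -1.44 had an SE of 0.515 and an unadjusted edgeR p of 0.025. Lin28a, Lin28b and Igf2bp1 entered only the fit with no filter, where Lin28b had a log2 difference of -2.21 (SE 1.02, edgeR adjusted p 0.478) on 59 untreated and 21 Minnelide UMIs, 40 of them from untreated tumor 2.

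Over all retained nuclei, 0 of 13800 genes (0%) were called by edgeR while 1368 had an unadjusted p below 0.05. DESeq2 called 170 (1.23%), again with no member among them. There Hmga2 had a log2 difference of 0.46 (SE 0.28, edgeR adjusted p 0.595) and Igf2bp3 one of 0.79 (SE 0.71, edgeR adjusted p 0.703), or 0.39 without untreated tumor 1 (edgeR adjusted p 0.634). The median over all genes was 0.01 on the same scale.

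The names of the deposited Minnelide matrices also carry words on response, which the labels do not give, so the values stand side by side with no test. In tumor-like nuclei of the pair named responder (Minnelide tumors 1 and 2), Hmga2 was at 4274 and 3925 CPM, and in the pair named nonresponder (3 and 4) at 3697 and 3505 CPM. Igf2bp3 was at 2390 and 2088 CPM in the first pair and 2541 and 2446 CPM in the second. Igf2 was at 52.2 and 5.17 CPM, and 2.95 and 2.37 CPM. Igf2bp2 was at 337 and 359 CPM, and 299 and 334 CPM. For Igf2bp2 the nearest values of the pairs were 334 and 337 CPM. Igf2bp1 overlapped, at 0.0414 and 0.47 CPM in the first pair and 0.146 and 0.557 CPM in the second. How many of all genes separate these pairs was not counted, so the order of the values is no result about the members. Any link to response was not tested.

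The pathway around the members was followed in gene lists, in tumor-like nuclei and on the log2 scale, Minnelide minus untreated. With edgeR 0 genes of any list were called, beside the background of 0%, and the adjusted p of every gene named here was between 0.436 and 0.944. The machinery that makes and decays let-7 (15 of 16 listed genes tested) had a median of 0.12, with 9 above 0. Dgcr8, which pairs with Drosha, was at 0.26 ± 0.21 (SE) and Tut4, a uridylating enzyme that LIN28 recruits, at 0.21 ± 0.19. Tut7, its paralog, was at -0.21 ± 0.12 and the helicase Ddx5 at -0.42 ± 0.25.

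Other let-7 targets (21 of 22 tested) had a median of 0.12, with 13 above 0. Smarcad1, a chromatin remodeler, was at 0.37 ± 0.15 and the nuclear receptor Nr6a1 at 0.51 ± 0.23. Cdk6, a G1 kinase, was at -1.41 ± 0.30 by edgeR, from 35.7 ± 14.3 to 11.97 ± 4.199 CPM, and was the one gene of these lists that DESeq2 called (adjusted p 0.0069). Myc was at -0.72 ± 0.22, from 19.6 ± 5.59 to 10.6 ± 2.11 CPM.

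The IGF axis (15 of 15 tested) had a median of 0.07, with 8 above 0. Igf2r, which clears IGF2, was at 0.24 ± 0.21 and the insulin receptor Insr at 0.19 ± 0.17. Irs2, an adaptor below the insulin receptor, was at -0.63 ± 0.21 and the ligand Igf1 at -1.30 ± 0.53, from 45.5 ± 44.1 to 16.02 ± 4.68 CPM. The imprinted genes (16 of 18 tested) had a median of 0.22, with 11 above 0. Grb10, an inhibitor of insulin and IGF signaling, was at 0.54 ± 0.27, Dlk1 at 1.31 ± 0.80, Gnas at -0.31 ± 0.11 and Nnat at -0.67 ± 0.65.

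Other oncofetal genes (8 of 14 tested) had a median of 0.25, with 6 above 0. Gpc3, a fetal cell surface proteoglycan, was at 0.89 ± 0.69, from 1279 ± 768 to 2245 ± 1101 CPM, Mycn at -1.11 ± 0.55 and Plagl2 at -0.04 ± 0.16. Other HMG box and HMGN genes (9 of 11 tested) had a median of 0.22, with 8 above 0. Hmgn3 was at 0.51 ± 0.22 and Hmgn5 at -0.17 ± 0.21. The CIC::DUX4 targets, a list the study uses and no independent evidence of its direction, had a median of 0.35 in 15 tested genes (12 above 0). Vgf was at 0.94 ± 0.35, Spred1 at 0.23 ± 0.16 and Etv4 at -0.27 ± 0.23. The median was 0.35 in 28 S phase genes (26 above 0), with Rfc2 at 0.27 ± 0.15, Brip1 at 0.70 ± 0.39, Cdc6 at -0.20 ± 0.43 and Usp1 at -0.04 ± 0.17. In 43 G2/M genes (42 above 0) it was 0.51, with Ccnb2 at 0.59 ± 0.21, Ube2c at 0.65 ± 0.25 and Lbr at -0.09 ± 0.17. Over all 13041 genes the median was -0.01.

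These medians rested in part on untreated tumor 1. Its tumor-like nuclei had the lowest summed level of G2/M genes (1510 CPM against 2635 to 3801 CPM in the other 7 tumors), S phase genes (618 against 1483 to 1853 CPM), other oncofetal genes (345 against 1781 to 4619 CPM) and CIC::DUX4 targets (15687 against 21627 to 27708 CPM). Without it the median log2 difference was 0.26 for G2/M genes (39 of 43 above 0), 0.12 for S phase genes (21 of 28), 0.05 for other oncofetal genes (5 of 8) and 0.17 for CIC::DUX4 targets (10 of 15). It was 0.02 for let-7 processing (8 of 15), 0.11 for imprinted genes (10 of 16), 0.11 for HMG box and HMGN genes (7 of 9) and 0.12 for the IGF axis (10 of 15), and for other let-7 targets it turned to -0.05 (10 of 21). For the 4 tested members it was 0.18, against 0.45 with all tumors and 0.02 over all genes.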

How the data were processed

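The authors deposited raw UMI counts per gene and nucleus, made with Cell Ranger (9.0.1 per the file headers, 7.0.1 in the submitters' processing notes) on mm39 with intronic reads included; the gene annotation behind the counted features is not given in the sources used here, and reads of paralogs or overlapping genes may be split. Members and lists were chosen with earlier results of these data known. Nuclei were filtered by a mixture regression of mitochondrial percent (posterior 0.75) and at least 200 genes, doublets removed by Scrublet score, and clustered without integration by Leiden at resolution 1.0 (scanpy 1.11.5, igraph 0.11.9). Clusters were named where at least 3 markers were raised 1.5-fold; the scoring rule was set after clusters were seen. Counts were summed per tumor and class and given as CPM. The unit of replication was the tumor, 1 per deposited matrix; tumor numbers follow file order. edgeR 4.0.16 (filterByExpr, TMM) was the test and DESeq2 1.42.0 an alternative. In simulated tumor-like counts for this comparison (13208 genes), edgeR recovered 47.0% of genes changed by 2 on the log2 scale and 6.00% of those changed by 1. Named genes were all members, per list and direction the 2 smallest unadjusted p, and the 5 most correlated genes; a gene this rule names in a list is not reported here. Protein identity was not computed; coding bases were aligned (Biopython 1.88). DNA matches are exact letter matches. Precision is limited by depth, from 18487409 UMIs in untreated tumor 4.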

Additional observations from a re-analysis of the deposited data

Results flagged for a closer look

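In 54 groups of 4 tumors (a gene, a class and a treatment group), 12 held a tumor whose gap to the rest of its group was above Dixon's 95% critical value for 4 samples, where chance flags about 1 in 20 groups. The groups share tumors and nuclei, so they are not independent.

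Igf2bp3 was low in untreated tumor 1, at 132.7 CPM in tumor-like nuclei against 2039 to 2236 CPM in the other untreated tumors, at 104.5 CPM in all nuclei and at 51.8 CPM in endothelial-like nuclei. Igf2 was high in the same tumor outside tumor-like nuclei, at 48.7 CPM in endothelial-like, 38.7 CPM in fibroblast-like and 44.8 CPM in macrophage-like nuclei. In tumor-like nuclei of this tumor, markers of endothelial cells (3641 CPM) and macrophages (1058 CPM) were also the highest of the 8. So were those of T and NK cells (149.7 CPM) and B cells (141 CPM), and the part of these markers was not tested.

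Igf2 was high in Minnelide tumor 1 in each class examined, at 52.2 CPM in tumor-like, 60.4 CPM in endothelial-like, 70.7 CPM in fibroblast-like and 87.9 CPM in macrophage-like nuclei and 55.3 CPM in all nuclei. Igf2bp3 over all nuclei was low in Minnelide tumor 2 (1219.6 CPM against 2151 to 2237 CPM), where 3436 of 6767 retained nuclei were myocyte-like and 1416 tumor-like; in its tumor-like nuclei it was at 2088 CPM.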

How the results depend on the processing

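Of 177 values recomputed under alternatives, 170 kept their direction and side of the threshold or moved by less than the spread. In place of the 0 genes that edgeR called, DESeq2 called 149 in tumor-like and 170 in all retained nuclei; the cause was not tested. Leaving out 1 tumor at a time gave 0 calls in tumor-like nuclei and 0 to 1 in all nuclei, the 1 without Minnelide tumor 2. The log2 difference of Igf2 turned to -1.44 in tumor-like and -1.83 in all nuclei without Minnelide tumor 1, and over the tumors left out in turn it ranged from -1.44 to 1.10 and from -1.83 to 1.02. Hmga2, Igf2bp3 and Igf2bp2 stayed highest in tumor-like nuclei in 8 of 8 tumors at resolution 0.5, with doublets kept, and without shared barcodes or the mitochondrial filter, the last 2 added after seeing the data. Naming tumor-like nuclei only from clusters without markers of a second class left none and gave no value. In DESeq2, Igf2 in tumor-like nuclei had no p. Tumor numbers only follow file order, but same-numbered tumors share a barcode position, read from the first barcode only. Their deviations from the group means had r of -0.28 to 0.02 in tumor-like and -0.39 to 0.02 in all nuclei. Each untreated tumor had a higher r with some tumor at another position, but the method favors that outcome. It centers each group on its mean and takes the highest of the other tumors, so these r cannot tell whether positions pair the tumors. With the position as replicate block, added after seeing the data, edgeR called 0 genes in both (766 and 649 at an unadjusted p below 0.05), and the log2 difference of Igf2 was -0.33 in tumor-like and -0.54 in all nuclei. Replicates are separate matrices; that they are separate animals rests on the series design. Lin28a, Lin28b and Igf2bp1 rest on few UMIs, so their levels are imprecise.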
